A study of Mus musculus with 2 samples.

Results

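AP-1 is a family of transcription factors built as dimers of basic leucine zipper proteins. The 9 genes described here were chosen by symbol: Fos, Fosb, Fosl1 and Fosl2 of the FOS family, Jun, Junb and Jund of the JUN family, and the related Atf3 and Maff. Each was found once among the 51912 gene rows of the RNA-seq count files, and all 9 were among the 13015 measured genes, those with a mean of at least 1 CPM (counts scaled to library size, here with TMM factors). The UKS group was 1 library from MEFs, fibroblasts grown out of mouse embryos, with genotype Usp16-/- after Cre recombinase, delivered by adenovirus, had removed floxed alleles. The KS group was 1 library from MEFs that were Usp16+/+ and had received the same virus. Both lines had a C57BL/6 background and carried SV40 T antigen (SV40T), a viral protein that binds and inactivates p53 and the RB proteins. The labels give no age of the embryos, and they do not say whether a line was 1 clone or came from pooled embryos.

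JUN proteins pair with one another or with FOS proteins, whereas FOS proteins need a JUN partner. The dimers bind the TPA response element TGACTCA, and some ATF-containing dimers prefer the related cAMP response element TGACGTCA. In fibroblasts Fos and Junb are immediate-early genes, induced within minutes by serum or stress from short-lived transcripts, while Fosl1 follows more slowly and accumulates under sustained ERK signalling. AP-1 is known in these cells for driving proliferation and the genes of matrix breakdown and wound repair.

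With 1 library per group there was no replicate check, so no p-value is given, and every difference describes these 2 libraries only. The libraries held 23205734 counts in UKS and 26561600 in KS, so that 1 count equalled 0.0428 CPM in UKS and 0.0379 CPM in KS. Usp16, the targeted gene (chromosome 16, 87454703 to 87483517), had 459 counts (19.7 CPM) in UKS and 1195 (45.3 CPM) in KS. Its level was 2.30-fold lower in UKS [2.07 to 2.57], where brackets here and below hold exact 95% intervals of the ratio of counts, which cover counting error only. The libraries also differed in sex-linked transcripts. Xist had 6998 counts in UKS and 1 in KS, and 4 Y-linked genes had 0 to 8 counts in UKS and 817 to 1511 in KS, so the sex of the embryos and the deletion cannot be told apart as sources of a difference. All 10 fibroblast markers were among the measured genes, led by Fn1 (14582 CPM in UKS and 8995 CPM in KS) and Vim (2413 and 4205 CPM in the same order). However, Thy1 (35.6 CPM in UKS, 168 CPM in KS) and Pdgfra (106 CPM in UKS, 302 CPM in KS) were lower in UKS. The fibroblast marker with the lowest level, Lum (2.23 CPM in UKS, 0.947 CPM in KS), reached a mean of 1 CPM through UKS alone.

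Junb stood apart from the other 8 subunits: it was 4.22-fold higher in UKS [3.98 to 4.48], and no other member differed by 2-fold as counted. JUNB is a weaker activator than JUN on many promoters and can oppose it. The count of Junb (ENSMUSG00000052837; GRCm38 chromosome 8, 84974484 to 84978718, minus strand) was 5438 in UKS and 1456 in KS, or 233 CPM in UKS and 55.2 CPM in KS. On the scale used for counting genes, log2((UKS CPM + 1)/(KS CPM + 1)), the ratio was 2.06, and 1.38% of the measured genes had a higher ratio. Thus 1 of 9 subunits was at least 2-fold higher, where the share among all measured genes was 5.81%, and 0 of 9 were at least 2-fold lower, where that share was 10.7%. A count of 1 in 9 is too small to set the subunits apart from the transcriptome. In bulk RNA, fewer cells with a transcript and less of it per cell cannot be told apart.

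**Figure D1:**
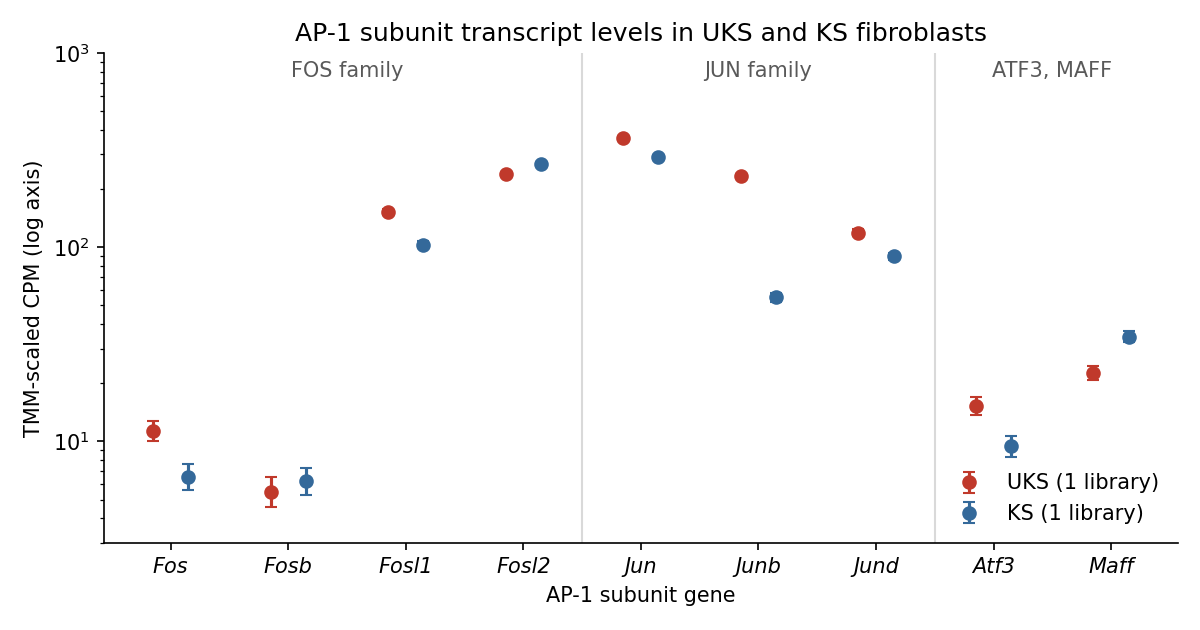
Levels of the 9 AP-1 subunit transcripts in TMM-scaled CPM on a log axis, with UKS left of KS for each gene; each point is 1 library and bars are exact 95% Poisson intervals, which cover counting error only. Junb has the widest gap (233 CPM in UKS, 55.2 CPM in KS), and the bars of Fosb overlap.

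The promoter windows of 3 members are shown because these are the member with the highest ratio (Junb), the one with the lowest (Maff) and the one with the highest level per kb in KS (Jun). The sequences are from RefSeq on GRCm38.p6, 250 bases before to 50 bases from the annotated start site, 5′ to 3′ on the strand of the gene. Capitals mark matches on either strand to the motifs searched, which are spelled out or named after the sequences.
Junb, chr8:84978699-84978998, minus strand: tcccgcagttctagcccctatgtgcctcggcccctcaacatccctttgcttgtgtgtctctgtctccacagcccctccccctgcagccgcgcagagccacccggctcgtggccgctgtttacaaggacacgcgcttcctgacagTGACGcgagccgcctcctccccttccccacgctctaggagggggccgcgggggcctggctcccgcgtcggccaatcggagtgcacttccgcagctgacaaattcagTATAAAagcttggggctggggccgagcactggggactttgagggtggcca
Jun, chr4:95052173-95052472, minus strand: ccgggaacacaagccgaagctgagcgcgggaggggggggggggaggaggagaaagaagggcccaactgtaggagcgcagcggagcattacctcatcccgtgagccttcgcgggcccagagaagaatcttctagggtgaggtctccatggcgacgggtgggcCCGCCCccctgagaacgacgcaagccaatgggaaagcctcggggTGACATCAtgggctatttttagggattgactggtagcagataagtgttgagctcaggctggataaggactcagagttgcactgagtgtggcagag
Maff, chr15:79347270-79347569, plus strand: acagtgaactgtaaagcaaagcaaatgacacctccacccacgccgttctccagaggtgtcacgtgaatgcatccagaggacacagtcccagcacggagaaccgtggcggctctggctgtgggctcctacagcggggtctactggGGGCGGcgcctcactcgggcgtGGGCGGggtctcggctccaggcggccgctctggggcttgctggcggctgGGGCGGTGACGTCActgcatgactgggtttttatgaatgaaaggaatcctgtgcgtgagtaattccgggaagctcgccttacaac

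The letters searched on both strands were TGACTCA, TGACGTCA, the Jun promoter variant TGACATCA, the shorter core TGACG (which lies within TGACGTCA), TATAAA and GGGCGG, along with the CArG box of serum response factor and the kappaB site of NF-kB. RefSeq windows were matched for 8 of the 9 genes, with 10 windows in all because Maff has 3; none is printed or described for Fosl1. The Junb window held TGACG at −106 to −102, a sequence found in 20.8% of all 32851 windows of this length, and TATAAA (13.6% of windows) at 0 to 5, counted from the RefSeq start as 0. That start lies 30 bases upstream of the GENCODE start of Junb. The Jun window held TGACATCA (3.62% of windows) at −45 to −38, the element through which JUN is known to act on its own gene. The printed Maff window held the full TGACGTCA (1.79% of windows) at −29 to −22. Another Maff window, at the start site 79348402, held TGACATCA at the same distance as Jun, −45 to −38. The Maff window at the GENCODE start, 79346621, held 0 matches to any motif searched; the printed window was chosen because it holds the full element. The Fos window held TGACG at −129 to −125 and at −66 to −62, and TATAAA at −33 to −28. The kappaB site (8.46% of windows) was matched in the windows of Fos, Fosb and Fosl2 and in the Maff window at 79348402. TGACTCA (5.20% of windows) and the CArG box (1.63%) were not matched in any of the 10 windows, which says only that these letters were not in them; the serum response element of Fos is known to lie further upstream. The Jund window ends before the GENCODE start of that gene, which is 1210 bases downstream of the RefSeq one. Sequence matches are a description, and no binding was measured.

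Within the JUN family the 3 genes, whose longest coding transcripts each have a single exon, were all higher in UKS as counted, but by unequal amounts. Jun, which encodes the prototype activator of the family (chromosome 4, 95049034 to 95052222), had 8529 counts in UKS (365 CPM) and 7677 in KS (291 CPM), 1.26-fold higher [1.22 to 1.30]. Jund, known in fibroblasts as a brake on proliferation (chromosome 8, 70698949 to 70700616), had 2771 counts in UKS (119 CPM) and 2364 in KS (89.5 CPM), 1.33-fold higher [1.25 to 1.40]. The intervals of Jun and Jund overlap each other and lie far below that of Junb. The log2 ratio of Junb exceeded that of Jun by 1.73, and that of Fos, the next highest member, by 1.35. The deposited counts of Jun and Jund were not whole numbers in either library, unlike those of the other 7 genes.

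In the FOS family the members did not share a direction. Fosl1 encodes FRA-1, which lacks the transactivation domain of FOS (chromosome 19, 5447547 to 5455946). It had 3533 counts in UKS (151 CPM) and 2720 in KS (103 CPM), 1.47-fold higher [1.40 to 1.54]. Fosl2 encodes the related FRA-2 (chromosome 5, 32135801 to 32157842). It had 5539 counts in UKS (237 CPM) and 7035 in KS (266 CPM), 1.12-fold lower [1.08 to 1.16]. The pair that makes up most of the FOS family transcripts thus lay on opposite sides of equality in counts, both within 2-fold.

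Fos itself, the cellular homologue of a retroviral oncogene (chromosome 12, 85473890 to 85477273), was low in both cultures. It had 264 counts in UKS (11.3 CPM) and 173 in KS (6.55 CPM), 1.73-fold higher [1.42 to 2.10], the largest ratio after Junb among the 9 subunits. Fosb (chromosome 7, 19302696 to 19310051) had 128 counts in UKS (5.48 CPM) and 164 in KS (6.21 CPM), a ratio of 0.882 [0.695 to 1.12]. This interval includes equal levels, so a difference in Fosb was not detectable at this depth. Counts per gene do not separate full-length FOSB from its truncated splice form.

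Atf3 and Maff lay on opposite sides. Atf3, a stress-induced factor that often represses as a homodimer (chromosome 1, 191170296 to 191218039), had 354 counts in UKS (15.2 CPM) and 249 in KS (9.43 CPM), 1.61-fold higher [1.36 to 1.90]. Maff, a small MAF protein with no transactivation domain that pairs with CNC factors such as NRF2 (chromosome 15, 79346621 to 79359076), had 525 counts in UKS (22.5 CPM) and 911 in KS (34.5 CPM), 1.53-fold lower [1.38 to 1.71]. Its log2 ratio of −0.60 was the lowest of the 9, and 79.2% of the measured genes had a higher one. Across the 9 subunits the interval lay above equality for 6, below it for 2 and across it for Fosb, where 41.4% of all measured genes had an interval above equality and 38.6% below it. At a size of 1.5-fold, 3 of the 9 counted as higher (15.4% of all genes) and 1 as lower (21.1%). The median log2 ratio of the subunits was 0.40, against 0.032 over all measured genes.

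**Figure D2:**
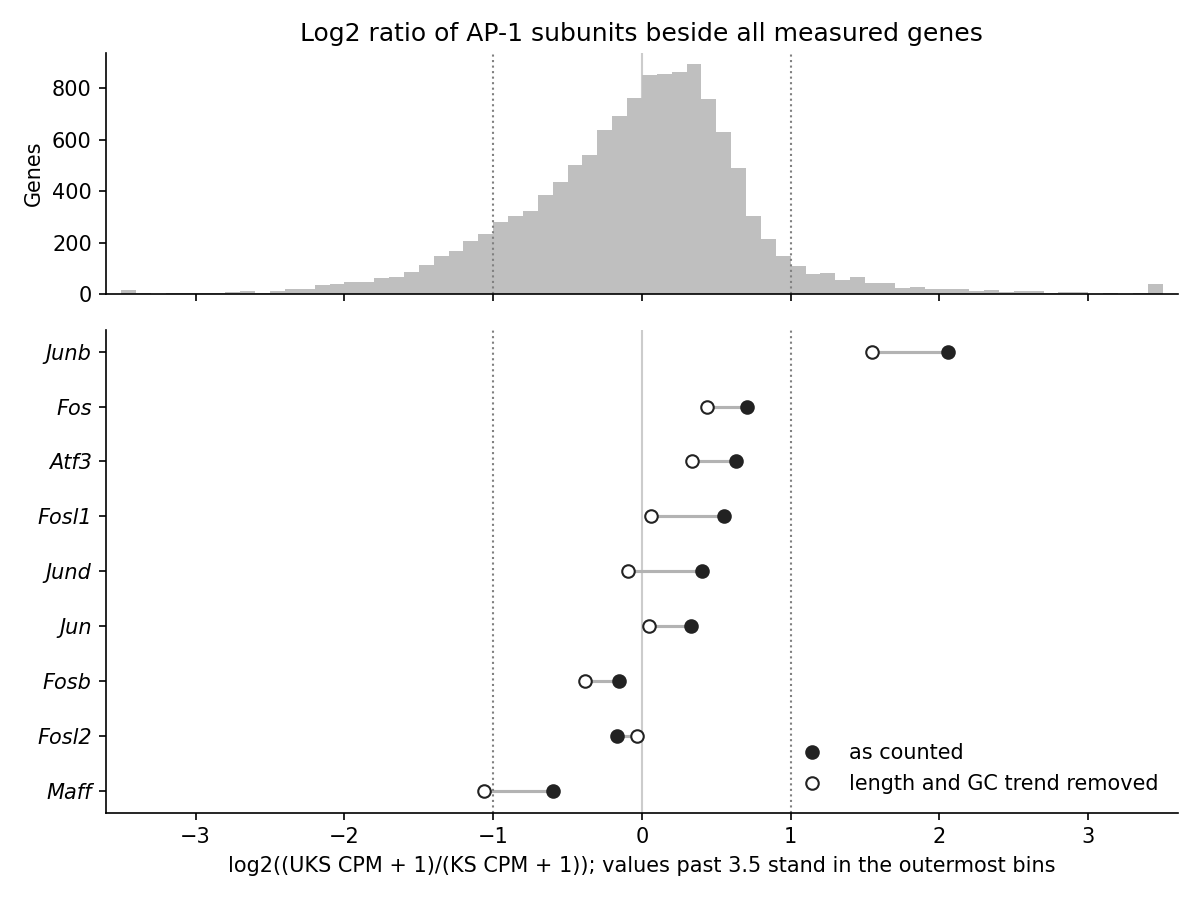
The upper panel counts all measured genes by log2((UKS CPM + 1)/(KS CPM + 1)), and the lower panel gives the same ratio for each AP-1 subunit as counted (filled points) and with the trend on transcript length and GC content removed (open points); dotted lines mark 2-fold. Junb lies past 2-fold both ways (2.06 and 1.55), and Maff reaches 2-fold lower only with the trend removed (−1.06).

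Ratios across the transcriptome moved with the base composition and length of the transcript. By their medians the subunits lie toward the GC-rich and short side. All 9 had a GC content above the median of the measured genes, between 51.9% for Fos and 67.1% for Jund, with a median of 56.0% against 49.9% over all measured genes. Their median transcript length was 1984 nt against 3158 nt, and 6 of the 9 were shorter than the typical gene. The 1300 genes richest in GC (median 59.9%) had a median log2 ratio of 0.40, whereas it was −0.81 for the 1300 poorest (39.8%). It was 0.38 for the 1300 shortest transcripts (median 956 nt) and −0.65 for the 1300 longest (8218.5 nt).

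With this trend subtracted, the subunits had a median log2 ratio of 0.048, and 1 of 9 was at least 2-fold higher (5.49% of all genes with both properties) and 1 of 9 at least 2-fold lower (4.97% of them). Junb kept a log2 ratio of 1.55, and 2.39% of genes had a higher corrected value. Maff passed 2-fold lower at −1.06. Jun at 0.048, Fosl1 at 0.063 and Fosl2 at −0.034 came to nearly equal levels, and Jund moved to −0.095, the opposite side of equality. Fos (0.43) and Atf3 (0.33) stayed higher within 2-fold, and Fosb stood at −0.38. Junb exceeded Fos, again the next highest, by 1.11 on the corrected scale. Whether the trend arose in the cultures or in library preparation was not tested.

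**Figure D3:**
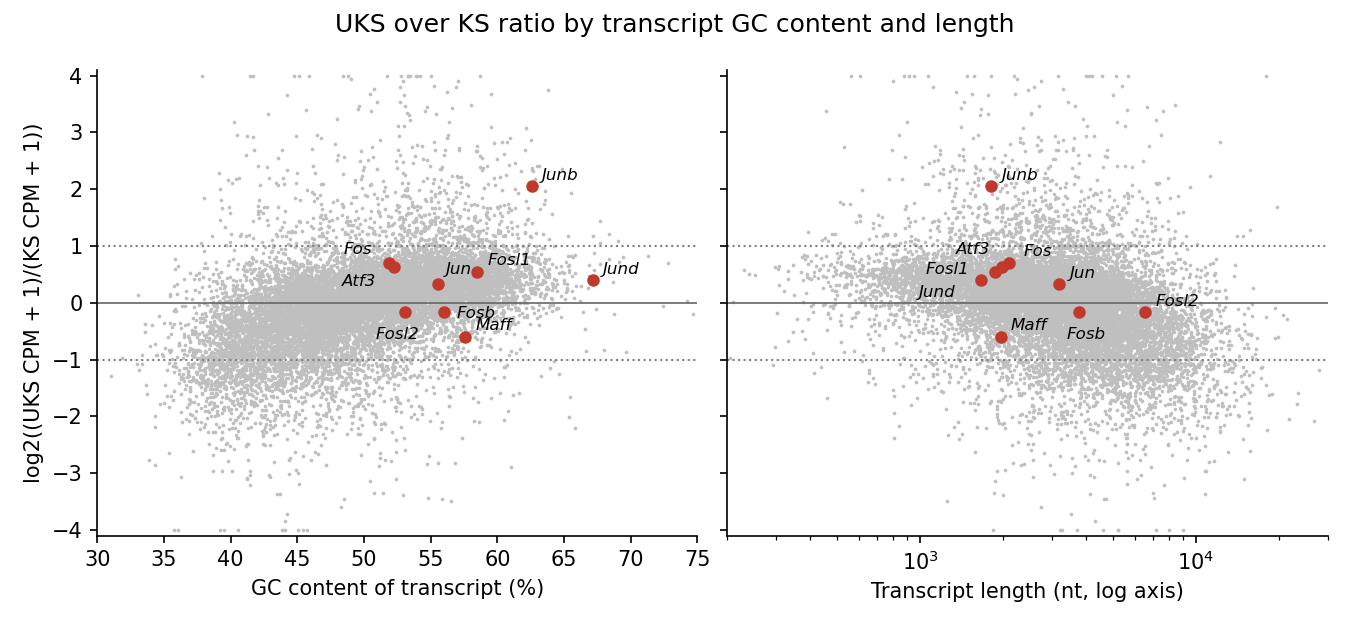
The log2((UKS CPM + 1)/(KS CPM + 1)) of each measured gene (grey) against the GC content of its transcript (left) and transcript length on a log axis (right), with the AP-1 subunits in red; values past 4 are drawn at 4, and dotted lines mark 2-fold. The median ratio was −0.81 over the 1300 GC-poorest genes and 0.40 over the 1300 GC-richest, and Junb at 2.06 lies above most genes of similar GC content.

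Levels of different genes were compared per kb of the longest coding transcript. In UKS the order was Junb (129 CPM per kb), Jun (115), Fosl1 (81.2), Jund (71.2), Fosl2 (36.3), Maff (11.5), Atf3 (7.64), Fos (5.36) and Fosb (1.45 CPM per kb), and no neighbours in it had overlapping counting intervals. In KS the order was Jun (91.2 CPM per kb), Fosl1 (55.3), Jund (53.7), Fosl2 (40.8), Junb (30.5), Maff (17.6), Atf3 (4.75), Fos (3.11) and Fosb (1.64 CPM per kb). Here the counting intervals of Fosl1 (53.2 to 57.4) and Jund (51.5 to 55.9 CPM per kb) overlapped. Junb was thus at rank 1 in UKS and rank 5 in KS, while the 4 lowest genes kept their order. Rank 1 depended on the length used. Per kb of all annotated exons, Jun (115 CPM per kb) lay above Junb (101) in UKS, and with the mean coding transcript length Fosl1 (136) lay above both.

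The make-up of the JUN family therefore differed between the libraries. Junb made up 40.9% of the summed JUN family level per kb in UKS (95% counting interval 40.1 to 41.7) and 17.4% in KS (16.6 to 18.2). Jun made up 36.4% in UKS and 52.0% in KS, and Jund 22.6% in UKS and 30.6% in KS. The ratio of Junb to Jun per kb was 1.12 in UKS and 0.334 in KS. Jun and Jund had smaller shares in UKS although their own levels were higher there as counted. With the length and GC trend removed their log2 ratios were 0.048 for Jun and −0.095 for Jund. The trend was not removed from the levels used for the shares.

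In the FOS family Fosl1 and Fosl2 together made up most of the summed level in both libraries. Fosl1 accounted for 65.3% in UKS (64.3 to 66.3) and 54.8% in KS (53.7 to 55.9), and Fosl2 for 29.2% in UKS and 40.4% in KS. Fos accounted for 4.32% in UKS and 3.08% in KS, and Fosb for 1.17% in UKS and 1.63% in KS. Summed per kb, the JUN family had 314 CPM per kb in UKS and 175 in KS, and the FOS family 124 in UKS and 101 in KS. Per kb of the longest coding transcript, the JUN sum to the FOS sum was 2.53 to 1 in UKS and 1.74 to 1 in KS. These ratios and the FOS family shares depend on the length used, which the counting intervals do not cover. With the mean coding transcript length Fosl1 had 136 CPM per kb in UKS and 92.8 in KS. Without Junb the JUN family sum was 186 CPM per kb in UKS and 145 in KS. Over all 9 genes the summed level, not scaled to length, was 1160 CPM in UKS and 862 CPM in KS. Junb accounted for 59.6% of the net difference, in which the lower levels of Fosl2, Maff and Fosb in UKS offset part of the rises. The length and GC trend was not removed from these sums.

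**Figure D4:**
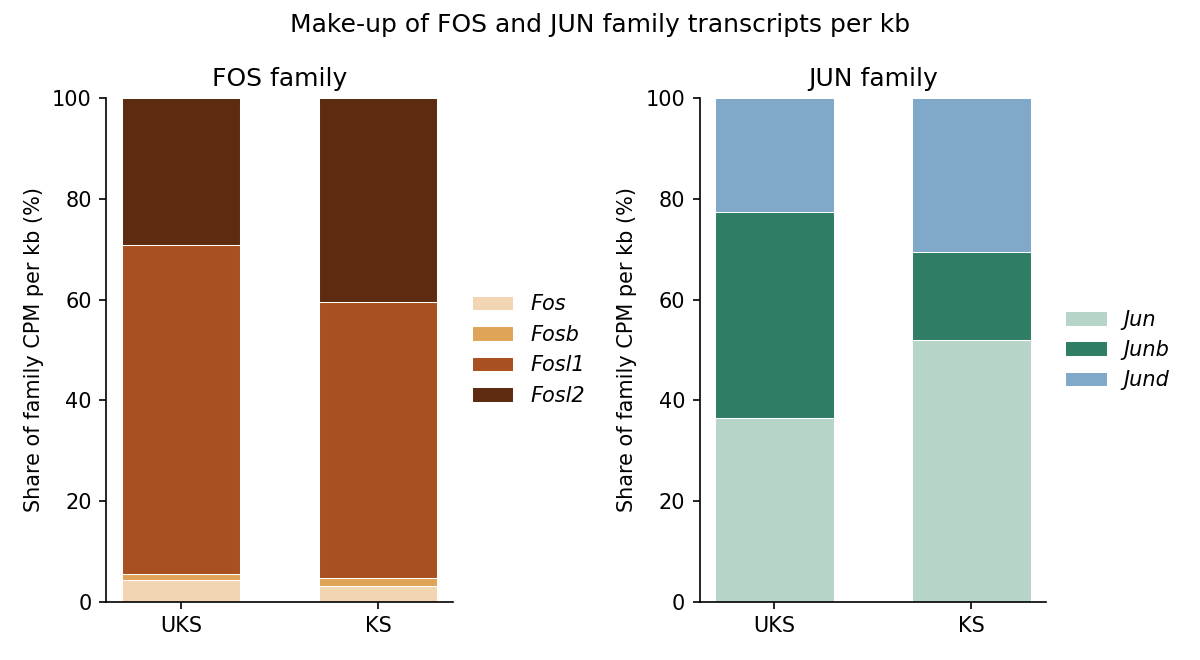
Share of each gene in the summed CPM per kb of the FOS family (left) and of the JUN family (right), with UKS left of KS; each bar is 1 library. Junb makes up 40.9% of the JUN family in UKS and 17.4% in KS, and Fosl1 makes up 65.3% of the FOS family in UKS and 54.8% in KS.

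Some members share sequence with genes on the opposite strand, and it is not stated whether counting used strand. Exons of Ccdc85b (691 counts in UKS, 397 in KS) cover 1163 of the 1864 nt of the Fosl1 transcript, so part of the Fosl1 level may belong to Ccdc85b. Prdx2 (297 CPM in UKS, 185 CPM in KS) overlaps 173 nt of a non-coding Junb transcript and 0 nt of the 1809 nt coding one. The antisense gene Junos (6.51 CPM in UKS, 7.12 CPM in KS) covers 232 of 3189 nt of Jun. An antisense model over Jund had 3 counts in UKS and 1 in KS. The log2 ratio of Junb as counted was above that of each of the 12 measured genes within 100 kb of it. These ran from −0.10 (Tnpo2) to 1.19 (Syce2, the only one past 2-fold) with a median of 0.51, against 0.032 over all measured genes. Among all measured genes 5.81% were past 2-fold higher. With the length and GC trend removed the neighbours ran from −0.24 (Fbxw9) to 0.99 (Syce2, then within 2-fold), and Junb stood at 1.55.

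By likeness of level, genes near to Junb included Tinagl1 (218 CPM in UKS, 53.0 CPM in KS) and Ereg (190 CPM in UKS, 46.9 CPM in KS). Their Euclidean distances to Junb in log2(CPM + 1) were 0.11 and 0.37. Over only 2 libraries such closeness says that levels and ratio are alike and no more.

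Other proteins that dimerize with or compete with AP-1 subunits lay mainly below equality as counted. Of 11 measured partners and antagonists 3 had a ratio above it, beside 51.9% of all measured genes, and the median log2 ratio was −0.54. There were 2 genes past 2-fold higher (5.81% of all genes) and 0 past 2-fold lower (10.7%). The higher ones were Batf, which pairs with JUN proteins in lymphoid cells, with 47 counts in UKS and 3 in KS (a ratio of 17.7 [5.70 to 89.0]), and the inflammatory factor Cebpb (38.6 CPM in UKS, 16.5 CPM in KS, 2.34-fold higher). Atf2, a partner of JUN (37.7 CPM in UKS, 74.8 CPM in KS), and Creb1, the cAMP response element binding protein (22.1 CPM in UKS, 42.4 CPM in KS), lay just within 2-fold lower as counted. With the trend removed Atf2 stood at log2 −0.29 and Creb1 at 0.23. Batf (2.01 CPM in UKS, 0.114 CPM in KS) reached a mean of 1 CPM through UKS alone. Its log2 ratio as counted was only 1.44, because 1 CPM was added to both levels. After trend removal Batf stood at log2 0.89 and Cebpb at 0.67, both within 2-fold. The median was then −0.077, and 2 others passed 2-fold lower. These were Jdp2, a repressor that dimerizes with JUN (20.3 CPM in UKS, 36.8 CPM in KS; corrected log2 −1.30), and Atf4, the effector of the integrated stress response (206 CPM in UKS, 332 CPM in KS; corrected log2 −1.08).

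Among 8 measured MAF and CNC factors, the partner set of Maff, 1 was past 2-fold higher and 1 past 2-fold lower, around a median log2 ratio of −0.081. Bach2, a repressor that pairs with small MAFs, had 10 counts in UKS and 123 in KS, 10.9-fold lower [5.72 to 23.3]. Bach2 (0.428 CPM in UKS, 4.66 CPM in KS) reached a mean of 1 CPM through KS alone. With 1 CPM added to both levels its log2 ratio was −1.99, and −1.47 with the trend removed. Maf (log2 −0.72) and Bach1 (−0.47) lay within 2-fold. The other small MAF genes, Mafg (log2 0.074) and Mafk (0.013), were close to equality as counted, beside −0.60 for Maff. With the trend removed Maf stood at −0.32, Bach1 at −0.081, Mafg at −0.0073, Mafk at −0.30 and Maff at −1.06.

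Upstream kinases and promoter-binding factors mostly differed by less than 2-fold. Of 20 measured MAP kinases, MAP kinase kinases and their effector kinases, 1 lay past 2-fold higher and 1 past 2-fold lower, shares no higher than over all genes (5.81% and 10.7%), around a median of 0.079 (−0.024 with the trend removed). Mapk13, a p38 isoform, was 3.34-fold higher [2.95 to 3.78], and Rps6ka2, an RSK kinase activated by ERK, was 4.01-fold lower [3.67 to 4.38]. Mapk3, which encodes ERK1, had 302 CPM in UKS and 156 CPM in KS, and Mapk8, which encodes the JUN kinase JNK1, had 24.0 CPM in UKS and 44.2 CPM in KS. With the trend removed Mapk3 stood at log2 0.46 and Mapk8 at 0.018. Of 11 factors and coactivators that act at the Fos and Jun promoters 1 was past 2-fold lower (10.7% of all measured genes). None was past 2-fold higher (5.81%), and the median was −0.38. The lower one was Mef2a, a MADS-box factor with sites in the Jun promoter (72.0 CPM in UKS, 151 CPM in KS), which stood at log2 −1.06 as counted and −0.37 corrected. Creb1 (log2 −0.91), Mef2c (−0.85) and the MRTF coactivator Mkl2 (−0.84) lay within 2-fold as counted. With the trend removed Creb1 stood at 0.23, Mef2c at 0.013 and Mkl2 at −0.41.

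Genes that act on AU-rich messages, or on the turnover or activity of AP-1 proteins, showed no common direction. Of 8 genes for decay of AU-rich mRNA, a class that includes the Fos message, 1 was past 2-fold higher (5.81% of all measured genes). In the same list 0 were past 2-fold lower (10.7%), and the median of −0.12 turned to 0.38 with the trend removed. Zfp36, which encodes tristetraprolin, a protein that promotes this decay, had 37.8 CPM in UKS and 18.3 CPM in KS (log2 1.01, and 0.73 with the trend removed; within 2-fold with DESeq2 size factors). Its relatives Zfp36l1 (log2 0.81) and Zfp36l2 (−0.43) and the RNA-binding protein gene Tia1 (−0.87) lay within 2-fold. Of 10 genes for turnover or inactivation of AP-1 proteins 0 were past 2-fold higher (5.81% of all measured genes) or lower (10.7%). Their median of 0.079 turned to −0.15 with the trend removed. The JUN and JUNB ubiquitin ligase gene Itch (log2 −0.94), Trib1 (0.73) and the JUN ligase component Fbxw7 (−0.54) were among those that differed most.

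Of 21 measured genes known as AP-1 targets in fibroblasts 9 lay past 2-fold higher in UKS (5.81% of all measured genes) and 1 past 2-fold lower (10.7%), around a median log2 ratio of 0.61. Trend removal left 7 higher and 1 lower, around a median of 0.37. Of the higher genes, Mmp9 (7.41 CPM in UKS, 0.189 CPM in KS) and Il6 (5.70 CPM in UKS, 0.909 CPM in KS) reached a mean of 1 CPM through UKS alone. Matrix metalloproteinases were among the higher genes. Mmp3 (stromelysin) had 181 CPM in UKS and 7.88 CPM in KS, Mmp13 (collagenase) 16.9 CPM in UKS and 1.36 CPM in KS, and Mmp9 (gelatinase) 173 counts in UKS and 5 in KS. Their ratios were 22.9 [19.9 to 26.5] for Mmp3, 12.4 (at least 8.81 by its interval) for Mmp13 and 39.1 [16.4 to 122] for Mmp9, the last against only 5 counts in KS.

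Among secreted signals of the target list, the cytokine gene Lif had 145 CPM in UKS and 15.9 CPM in KS, Il6 had 133 counts in UKS and 24 in KS, and the chemokine gene Ccl2 had 255 CPM in UKS and 110 CPM in KS. Ptgs2, which encodes the inducible cyclooxygenase, had 261 CPM in UKS and 113 CPM in KS. Timp1, an inhibitor of metalloproteinases (288 CPM in UKS, 115 CPM in KS), and Hmox1, haem oxygenase (9154 counts in UKS, 4253 in KS), were past 2-fold only as counted. The lower gene was Cd44, the hyaluronan receptor, with 266 CPM in UKS and 838 CPM in KS. Il6, Ccl2, Ptgs2 and Mmp9 are also known as targets of NF-kB. The list was assembled with earlier results of these libraries in view, so its counts are no independent evidence of a direction.

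**Figure D5:**
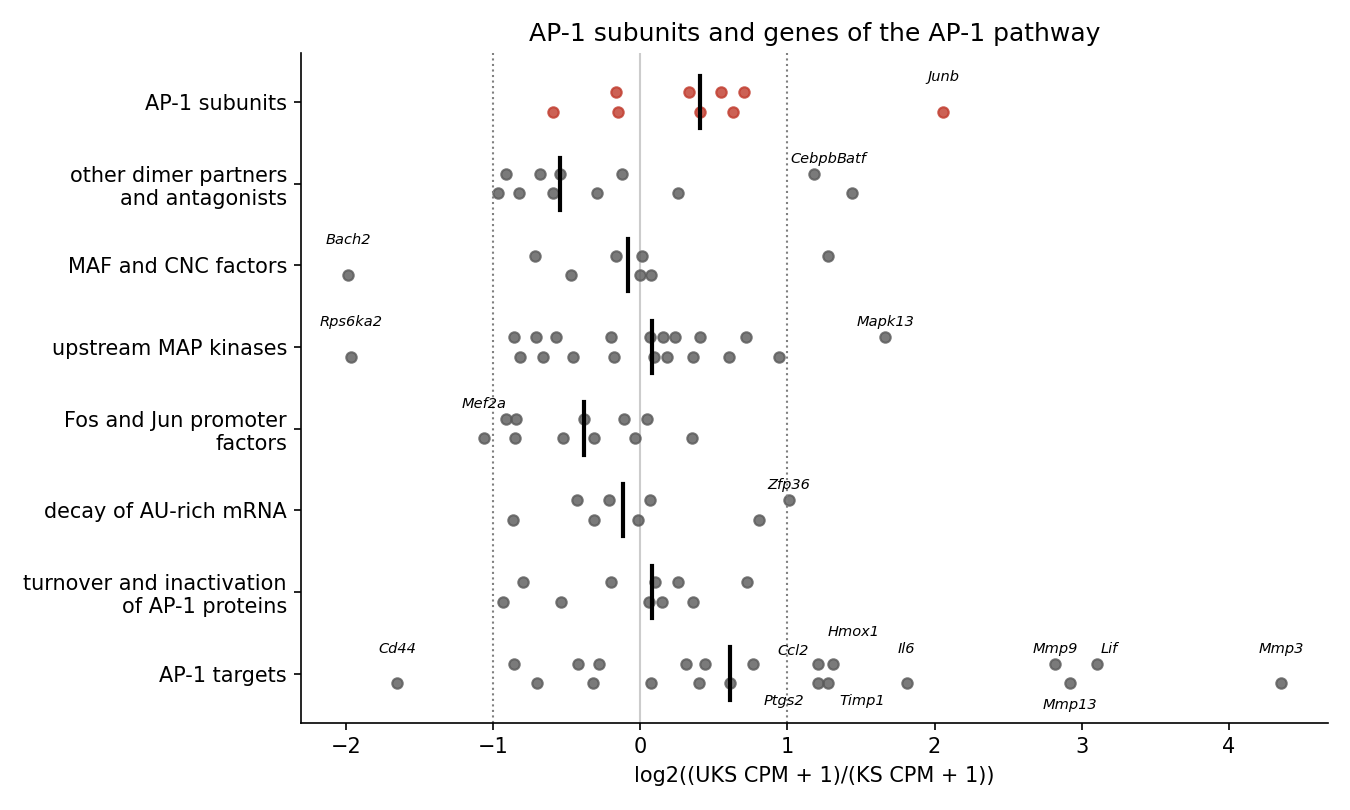
The log2((UKS CPM + 1)/(KS CPM + 1)) of each measured gene (points) in the AP-1 subunit set (red) and in 7 lists of the AP-1 pathway (grey), with the median of each as a black bar; dotted lines mark 2-fold, and names stand beside most genes past it. The target list has 9 of 21 genes past 2-fold higher, and the subunits 1 of 9, beside 5.81% of all measured genes.

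Most markers of other cell types were low, but their levels were not equal between the libraries. Cd14 in UKS (62.3 CPM) lay above the fibroblast marker Thy1 in the same library (35.6 CPM). The 4 blood cell markers found summed to 67.2 CPM in UKS and 24.7 CPM in KS, mostly from Cd14 (62.3 CPM in UKS, 18.8 CPM in KS); Cd68 had 4.84 CPM in UKS and 5.83 CPM in KS, while Ptprc had 1 count in UKS and 2 in KS and Adgre1 had 0 in both. The 5 neural and glial markers summed to 40.6 CPM in UKS and 25.4 CPM in KS, with Sox2 at 23.5 CPM in UKS and 4.85 CPM in KS, Tubb3 at 17.1 CPM in UKS and 20.4 CPM in KS, and Rbfox3 at 0 in both. The 5 epithelial markers summed to 12.9 CPM in UKS and 19.8 CPM in KS, the 5 endothelial ones to 3.64 CPM in UKS and 3.41 CPM in KS, and the 5 skeletal muscle ones to 0.899 CPM in UKS and 0.227 CPM in KS. The part of such cells in the AP-1 levels was not tested.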

How the data were processed

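RNA was measured in 1 UKS and 1 KS library of total RNA. Per the labels' protocols it was extracted with TRIzol and made into libraries with a TruSeq RNA kit. The submitters' processing notes name HISAT2, StringTie and GRCm38.p5, without role. Not given in the sources used here are tool versions, the counting program and the strand setting. The authors deposited expected counts, unscaled estimates for each gene with decimals, which were rounded to whole numbers. Of genes above 0, 21.5% in UKS and 23.1% in KS had a count that was not whole. Reads shared between similar or overlapping genes may have been split.

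TMM factors (1.01 for UKS, 0.994 for KS) came from edgeR 4.0.16 in R 4.3.3. The main value was log2((UKS + 1)/(KS + 1)) on TMM-scaled CPM, for genes averaging 1 CPM or more, and 2-fold was a size, not a test. Intervals are exact conditional binomial (Clopper-Pearson) for ratios and exact Poisson for single counts, at 95%, from scipy 1.17.1; share intervals use the Poisson variance of the counts. Reads without molecular identifiers are not independent molecules, so intervals cover counting error only. The files gave 1 library per group, so no test between groups was made.

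GENCODE M21 (GRCm38; 51633 of 51912 identifiers matched) gave coordinates and, from the longest coding transcript, length and GC content. To remove their trend, log2 ratios of genes outside the lists were regressed on cubics in log2 length and in GC percent with Tukey's biweight (statsmodels 0.14.6), with length held within 200 and 20000 nt and GC within 35 and 65%. The fitted value was subtracted for 12997 genes, which also takes away any biology tied to length or GC. The steps were tested on simulated data with a linear GC trend and counting noise only. No length trend was simulated, so the length part of the correction was not tested.

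The 9 members, the 7 pathway lists, the 6 marker lists and the trend correction were chosen with earlier results of these data known. From each pathway list the text names the 4 measured genes with the largest absolute ratio and those past 2-fold; further genes (Mafg, Mafk, Jdp2, Atf4) were chosen after their values were seen. For Junb the rule took the 3 genes nearest in level that were in no list, leaving out predicted models. Alternatives were plain totals, DESeq2 1.42.0 size factors, upper-quartile factors, pseudocounts of 0.5 and 2 CPM, a filter at 0.5 CPM and none, counts without rounding, a 1.5-fold size, the trend removed, and other transcript lengths for the shares. A further engineered alteration that both lines share, and some genes that these rules take, are not reported here.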

Additional observations from a re-analysis of the deposited data

How the results depend on the processing

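Under the 3 other scalings, the 2 other pseudocounts, the 2 other filters and counts without rounding, each of the 9 subunits kept its direction and its side of 2-fold, with Junb between 2.03 and 2.10 on the log2 scale and Maff between −0.62 and −0.56. With the length and GC trend removed the number at least 2-fold lower became 1 (Maff, −1.06) and the median of the subunits became 0.048, with Junb at 1.55, Atf3 at 0.33, Fosl1 at 0.063, Jun at 0.048, Fosl2 at −0.034 and Jund at −0.095. At a size of 1.5-fold, 3 subunits counted as higher (Junb, Fos and Atf3; 15.4% of all measured genes) and 1 as lower (Maff; 21.1%). The UKS minus KS difference in family share was 10.5 percentage points for Fosl1 and −11.2 for Fosl2, and became 8.91 and −9.21 with mean coding transcript lengths. It was 23.6 for Junb and −15.6 for Jun, and became 21.1 and −14.1 with the union of exons. Of all genes past 2-fold, 52.5% were higher with the trend removed and 35.1% as counted, because lower genes numbered 646 with it removed and 1396 as counted, while higher genes numbered 713 and 756. The call on Zfp36 was lost with DESeq2 size factors and with a pseudocount of 2 CPM, and that of 1 of the 2 higher dimer partners with a pseudocount of 2 CPM. No paired analysis was possible because each group has 1 library, and for the same reason no library could be left out. Depth limits Fosb most, at 128 counts in UKS and 164 in KS.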
